A study of Mus musculus with 2 samples.

Results

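Accessible chromatin regions that lie far from any protein-coding gene start were examined in single-cell ATAC-Seq data from mouse mammary gland organoids. Overlapping peaks of both libraries on chromosomes 1 to 19 were merged, which gave 268016 regions. Those with a peak from each of the 2 libraries are called shared, and there were 170665. A shared region was kept as a gene-desert region when its midpoint was more than 200 kb from every transcription start site (TSS) of a protein-coding gene of GENCODE M21 on the mouse build mm10, a rule that uses position and no count. This left 11657 desert regions, or 6.83% of the shared regions. The organoids came from C57BL/6J mice of the genotype shTRPS1.34 ki/+; CAG-rtTA3 tg/+ and were kept for 7 days in 0.1 µg/ml doxycycline (DOX) or in ethanol as the control (EtOH). Both groups carried the same alleles: a doxycycline-responsive short hairpin RNA (shRNA) against Trps1 placed in the Col1a1 locus, and the transactivator rtTA3 under the ubiquitous CAG promoter. Each group is 1 library in which nuclei of several mice were mixed, so that no difference below could be tested, and every interval covers counting error only. The hairpin acts on the Trps1 messenger RNA, which is not measured here, and doxycycline itself differs between the groups together with the hairpin. A legend of the study names wild-type mice for this assay, whereas the labels and its text name shTrps1 mice, and the labels were followed.

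Gene deserts are long intervals without protein-coding genes that often flank genes for developmental transcription factors and signalling ligands. Many hold distal enhancers, short stretches of open chromatin bound by transcription factors that can act on a promoter far away in the same topological domain. In the mammary gland, such elements differ strongly between luminal, basal and immune cells, more so than promoters do. The transposase used in ATAC-Seq inserts adapters into open chromatin, and a count is 1 such insertion at a fragment end inside a peak.

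Each desert region was assigned to a locus, the interval between the neighbouring protein-coding TSS on either side, and a locus is named by these flanking genes without a statement on which gene a region acts on. The central 200 bases of 7 regions are printed to show what the results below refer to: the region with the most counts in each of the 5 loci with the most desert regions, then the regions with the highest and the lowest DOX to EtOH ratio. The reference sequence is that of GRCm38, + strand, 5′ to 3′. Capitals mark matches on either strand to the 11 short motifs that were searched.
Zeb2-Acvr2a region, chr2:45581251-45581450: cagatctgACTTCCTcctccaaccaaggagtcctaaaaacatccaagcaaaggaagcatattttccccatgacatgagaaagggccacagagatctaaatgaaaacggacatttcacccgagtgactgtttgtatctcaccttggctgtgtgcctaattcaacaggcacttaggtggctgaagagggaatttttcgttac
Myc-Gsdmc region, chr15:62210136-62210335: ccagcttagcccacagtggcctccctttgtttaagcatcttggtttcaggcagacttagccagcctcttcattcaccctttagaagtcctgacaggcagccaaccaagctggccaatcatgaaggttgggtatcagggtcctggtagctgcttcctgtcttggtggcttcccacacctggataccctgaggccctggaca
Nudt12-Efna5 region, chr17:62415219-62415418: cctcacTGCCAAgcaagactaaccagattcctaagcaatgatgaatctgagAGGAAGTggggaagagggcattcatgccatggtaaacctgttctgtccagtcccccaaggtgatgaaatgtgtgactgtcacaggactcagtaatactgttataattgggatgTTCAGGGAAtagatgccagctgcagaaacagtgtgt
Nmbr-Cited2 region, chr10:17347907-17348106: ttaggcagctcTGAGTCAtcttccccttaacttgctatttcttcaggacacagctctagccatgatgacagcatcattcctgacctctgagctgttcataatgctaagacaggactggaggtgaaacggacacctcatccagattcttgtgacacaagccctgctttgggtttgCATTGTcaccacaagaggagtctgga
Kcnj2-Sox9 region, chr11:111512575-111512774: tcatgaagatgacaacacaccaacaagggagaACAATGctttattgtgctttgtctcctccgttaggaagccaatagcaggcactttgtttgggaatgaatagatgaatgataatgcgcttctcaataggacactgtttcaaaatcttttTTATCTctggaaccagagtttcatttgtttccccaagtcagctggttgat
Zfat-Khdrbs3 region, chr15:68482197-68482396: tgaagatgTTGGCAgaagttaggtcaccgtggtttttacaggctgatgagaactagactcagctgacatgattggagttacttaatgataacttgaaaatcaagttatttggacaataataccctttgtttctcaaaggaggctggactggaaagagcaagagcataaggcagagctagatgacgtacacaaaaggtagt
Cetn3-Mef2c region, chr13:82849079-82849278: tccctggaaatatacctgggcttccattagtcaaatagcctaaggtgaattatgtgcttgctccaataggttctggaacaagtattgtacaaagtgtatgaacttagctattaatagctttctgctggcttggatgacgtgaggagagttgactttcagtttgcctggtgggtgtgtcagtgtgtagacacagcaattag
The Kcnj2-Sox9 sequence holds a GATA match and a SOX match, and the Nudt12-Efna5 sequence holds an ETS, an NFI and a STAT match. The Nmbr-Cited2 sequence holds an AP-1 and a SOX match. The Myc-Gsdmc and Cetn3-Mef2c sequences hold none of the 11 in these 200 bases. A match is a description of the letters and does not show that a factor was bound.

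The DOX library held 3071 nuclei with 224762118 counts and the EtOH library 3104 nuclei with 211963715 counts, at medians of 75296 and 66789.5 counts per nucleus. There were 23 barcode sequences present in both libraries. Nuclei were clustered on all shared regions, desert regions included. Immune-like clusters, in which the accessibility of Ptprc, Csf1r, Spi1 and other immune genes was higher than in the other nuclei by a median log2 fold of 1.75 to 1.91, held 1241 DOX nuclei (40.4%, 95% interval 38.7 to 42.2) and 271 EtOH nuclei (8.73%, 7.76 to 9.78). Clusters called hormone-sensing luminal-like from Esr1, Pgr, Foxa1, Prlr, Areg, Wnt4 and Tbx3 held 100 DOX and 996 EtOH nuclei. The remaining clusters stayed unnamed. Of these, cluster 2 held 1241 DOX and 11 EtOH nuclei and cluster 1 held 64 DOX and 1591 EtOH nuclei, so that a value over the nuclei outside the immune-like clusters compares cluster 2 with cluster 1 to a large extent. It also pools unlike shares of hormone-sensing luminal-like nuclei, so that for several loci below the ratios within the hormone-sensing luminal-like and within the unnamed clusters are given as well. In sums over a library, more nuclei of a type and more open chromatin per nucleus cannot be told apart.

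The desert regions were distal to the TSS of protein-coding genes only, and with the TSS of every annotated gene 803 of the 11657 stayed beyond 200 kb. The median distance to a protein-coding TSS was 319 kb, 2396 regions lay beyond 500 kb, and 357 lay beyond 1 Mb. The most remote region, chr14:91230677-91231501, was 2655 kb from the nearest TSS and had 99 DOX and 134 EtOH counts. The regions nearest to the distance limit were chr12:35286524-35287363, a member, with 400 DOX and 682 EtOH counts, and chr14:67434181-67435099, just short of the limit and no member, with 210 and 413. In all, 8602 desert regions (73.8%) lay in no protein-coding or long non-coding RNA (lncRNA) gene body. A lncRNA gene body held 1764 (15.1%) and the body of a long protein-coding gene 1338 (11.5%), 24 of them on an exon, and a region can lie in both. A lncRNA TSS was within 1 kb of 227 desert regions (1.95%), against 2.83% of the other shared regions. The members made up 12.8% of the shared regions of chromosome 13 and 2.97% of those of chromosome 19, the highest and lowest shares of the 19 chromosomes.

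Desert regions were weaker, poorer in GC and open in fewer nuclei than shared regions as a whole. The median desert region had 624 counts over both libraries against 1079 for all shared regions, and the range over the desert regions was 53 to 24303. The median member had a count in 3.97% of DOX nuclei and 4.67% of EtOH nuclei, compared with 7.52% and 7.28% for all shared regions. The GC content of the central 300 bases had a median of 44% against 48%, and 14.5% of the members had no CpG there against 7.39%. Width and repeat content were alike, with median widths of 923 and 913 bases and mean soft-masked shares of 13.5% and 13.4%.

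The share of a library's counts that fell in desert regions was lower in DOX than in EtOH when all nuclei were summed, but the libraries lay close together within clusters. Over all nuclei it was 2.827% in DOX (95% interval 2.824 to 2.831) and 3.287% in EtOH (3.283 to 3.290). In immune-like nuclei the shares were 1.540% in DOX and 1.514% in EtOH. In hormone-sensing luminal-like nuclei they were 3.475% and 3.412%, and over all nuclei outside the immune-like clusters 3.638% and 3.417%. In clusters 1 and 4 the DOX share was the lower one by a far smaller gap, at 3.287% against 3.347% and 3.484% against 3.516%. The immune-like nuclei placed the smallest share of their counts in deserts, and per nucleus their median was 1.52% in DOX and 1.47% in EtOH against 3.59% and 3.36% in the unnamed clusters. Cluster 8 had the highest share of any cluster with at least 50 nuclei of both libraries, at 4.223% in its 82 DOX nuclei and 4.176% in its 133 EtOH nuclei. In that cluster the basal and fibroblast markers stood above the other nuclei by median log2 folds of 0.74 and 1.00, and it was left unnamed.

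**Figure D1:**
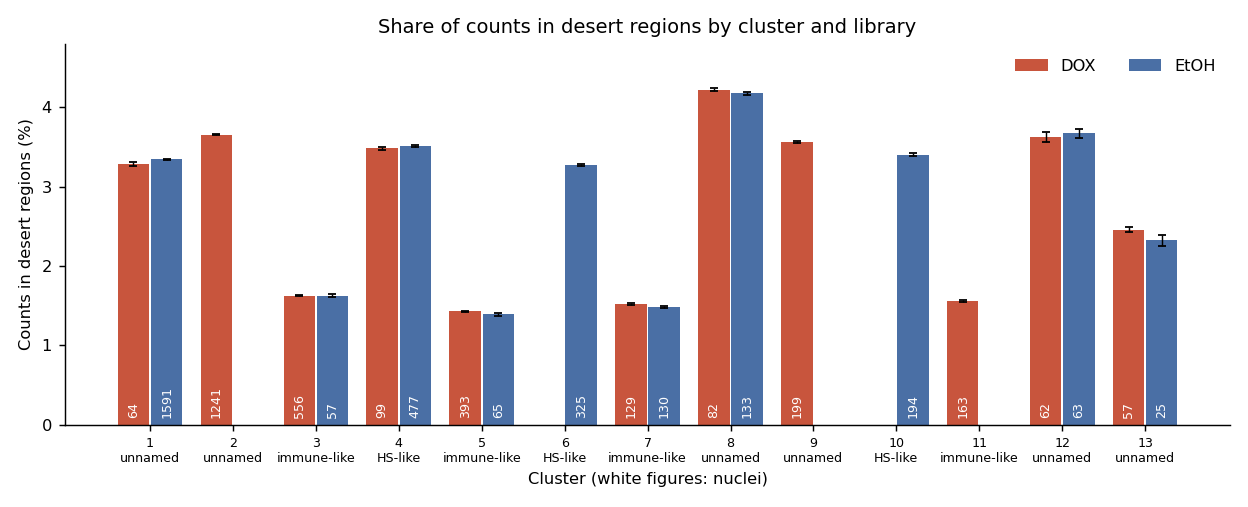
Percentage of a cluster's counts (y axis) that fell in desert regions, for each cluster and library (x axis; HS-like, hormone-sensing luminal-like). Error bars are 95% counting intervals, white figures give the number of nuclei, and a missing bar means fewer than 20 nuclei. Immune-like clusters lie between 1.392% and 1.628% in both libraries, and within clusters the 2 libraries lie close together.

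Counts were scaled to CPM, counts per 1000000 counts of a library in shared regions, and regions with at least 100 counts over both libraries were compared, which 11632 of the 11657 desert regions had. A region was called apart at a 2-fold ratio. In DOX, 1231 desert regions (10.6%) were higher and 2374 (20.4%) were lower by this rule, whereas of all 170510 shared regions compared 13.0% were higher and 13.4% lower. The median log2 ratio of the desert regions was -0.35, against -0.13 over all shared regions. Relative to that median over all shared regions the desert median was -0.22.

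Most desert regions were open mainly outside the immune-like clusters, and the ratio over all nuclei followed this. Of the members compared, 9490 (81.6%) had at least 2-fold fewer CPM in immune-like than in other nuclei, compared with 51.5% of the other shared regions, and their median log2 ratio of DOX to EtOH was -0.49. The 1097 members (9.43%) with at least 2-fold more CPM in immune-like nuclei had a median log2 ratio of 1.56. The 1045 members in between had a median of -0.085. Among the other shared regions the medians were -0.56 for those lower in immune-like nuclei, 1.34 for the 18.6% higher in them and 0.034 in between. These medians were thus not particular to the deserts. Immune-like nuclei gave 63.2% of the DOX counts in the members called higher and 5.60% in those called lower. The clusters were computed from these same counts, so these values are descriptions.

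Within the immune-like clusters 1977 desert regions reached 100 counts. Of these, 170 (8.60%) were called higher in DOX and 13 (0.658%) lower, beside 6.05% and 0.450% of all shared regions, and the median log2 ratio was 0.057. The limit was reached mainly through DOX, since immune-like nuclei had 80835972 counts in DOX and 13580544 in EtOH. It thus favoured regions higher in DOX, and the split between higher and lower is not a result about the members. Outside the immune-like clusters the desert regions split nearly evenly. There, 1307 of 11253 (11.6%) were called higher and 1170 (10.4%) lower in DOX, beside 5.47% and 8.37% of all shared regions, with a median of -0.0047 for the desert regions and -0.052 for all. Of the 1231 members higher over all nuclei, 879 reached 100 counts outside the immune-like clusters, and 547 of these (62.2%) were also called higher there. Of the 2374 lower, 2373 reached 100 counts and 1036 of these (43.7%) were also called lower there. None of the 2374 had 2-fold more CPM in immune-like nuclei, whereas 754 (61.3%) of the 1231 did. The shares of calls kept and of calls higher in immune-like nuclei were not taken over the other shared regions. Whether they are particular to the deserts was therefore not examined. In the 6 clusters with at least 50 nuclei of each library and enough counts, the median log2 ratio of the desert regions lay between -0.076 and 0.019.

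Regions at a greater distance from a TSS were more often apart once the immune-like nuclei were set aside. Outside the immune-like clusters 4.19% of regions within 1 kb of a TSS were at least 2-fold apart in either direction. The share was 17.8% at 50 to 200 kb, 21.5% at 200 to 500 kb, 23.9% at 500 kb to 1 Mb and 25.1% beyond 1 Mb. The median log2 ratio outside the immune-like clusters rose over the same desert bins from -0.023 to 0.057 and 0.18. Over all nuclei it was 0.078 within 1 kb, -0.34 at 200 to 500 kb, -0.39 at 500 kb to 1 Mb and -0.26 beyond 1 Mb. The counts behind a region fell along the same axis, from a median of 12.0 CPM in DOX within 1 kb to 1.09 CPM beyond 1 Mb, and its part in the shares of regions apart was not tested.

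**Figure D2:**
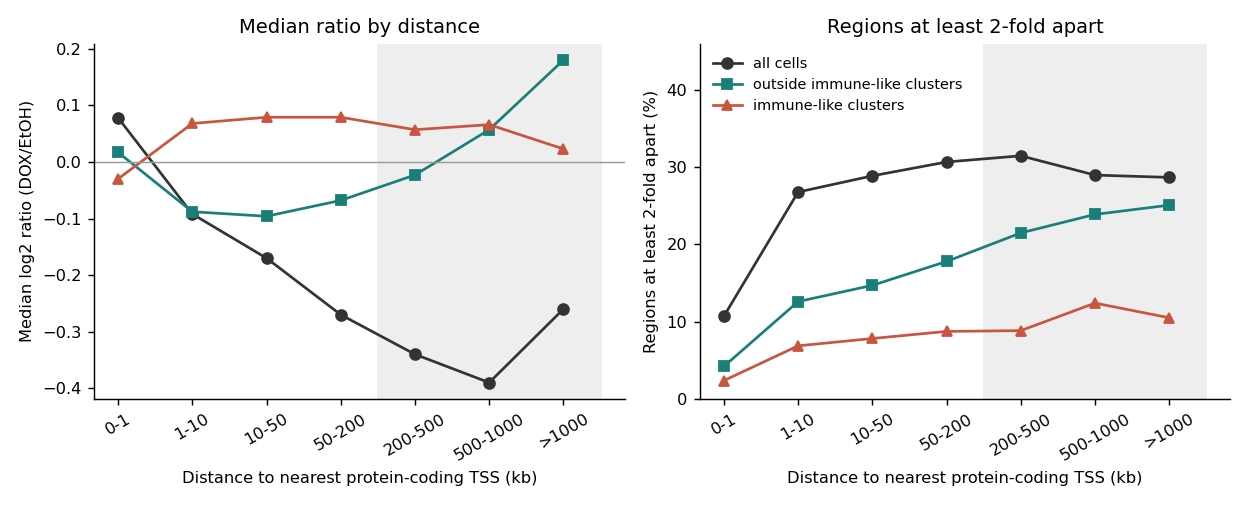
Median log2 ratio of DOX to EtOH (left) and percentage of regions at least 2-fold apart (right) for shared regions binned by distance to the nearest protein-coding TSS (x axis, kb), over all nuclei, outside the immune-like clusters and within them. The shaded bins are the desert regions, where the median over all nuclei falls to -0.39 while that outside the immune-like clusters rises to 0.18.

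The desert regions fell into 858 loci. There were 383 loci with at least 10 desert regions, which together held 83.1% of them, and 35 with at least 50. Summed over its desert regions, a locus was below 0 in log2 ratio over all nuclei in 304 of the 383 and above 0 in 79, and the sums of 14 loci were 2-fold lower or more and those of 2 were 2-fold higher or more. With the immune-like nuclei left out, 238 were above 0 and 145 below, and the sum of 1 locus was 2-fold higher or more. The SD of the log2 ratio among the regions of a locus had a median of 0.89 over the 383 loci. In 270 of the 383 loci, at least 1 region was 2-fold higher and at least 1 was 2-fold lower. The more regions a locus holds, the more often both occur, and no expected share was computed.

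The 10 loci with the most desert regions held 795 of them (6.82%). The largest was the 3697 kb between Zeb2, a repressor of epithelial genes, and Acvr2a, an activin receptor, on chromosome 2, with 113 desert regions. Its regions summed to 258 CPM in DOX (95% interval 255 to 261) and 223 CPM in EtOH (220 to 226), a log2 ratio of 0.21. Outside the immune-like clusters the sums were 296 and 226 CPM, a log2 ratio of 0.39 (0.36 to 0.42), and in hormone-sensing luminal-like nuclei 215 and 224 CPM, a log2 ratio of -0.059 (-0.16 to 0.046). Single regions of the locus ran from -3.20 to 2.81, with 24 called higher and 15 called lower. The sequence printed for this locus comes from chr2:45580886-45581814, with 2794 DOX and 2209 EtOH counts and a log2 ratio of 0.26 over all nuclei and 0.74 outside the immune-like clusters.

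The second was the Myc-Gsdmc locus on chromosome 15, with 89 desert regions over 1821 kb. Myc encodes a growth-promoting transcription factor, Gsdmc a pore-forming gasdermin, and 58 of the 89 regions lay in lncRNA gene bodies, among them that of Pvt1, the lncRNA next to Myc. The sums were 316 CPM in DOX and 288 CPM in EtOH, a log2 ratio of 0.13 (0.11 to 0.16), and 348 and 292 CPM outside the immune-like clusters, a log2 ratio of 0.25. The printed Pvt1 region had 3909 DOX and 3146 EtOH counts. Its log2 ratio was 0.23 over all nuclei and 0.80 outside the immune-like clusters. It was 0.52 (0.42 to 0.63) in the unnamed clusters but -0.86 (-1.59 to -0.21) in hormone-sensing luminal-like nuclei, where it had only 40 DOX counts. Of the 22 regions of the locus called higher over all nuclei, 17 had 2-fold more CPM in immune-like nuclei. On the other side of Myc, the 55 desert regions towards A1bg summed to a log2 ratio of -0.26 over all nuclei and 0.28 outside the immune-like clusters.

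The Nmbr-Cited2 locus on chromosome 10 had the highest summed ratio of these 10 loci over all nuclei, at 0.42 (0.39 to 0.45), from 250 CPM in DOX and 187 CPM in EtOH. Cited2 encodes a transcriptional co-regulator and Nmbr the neuromedin B receptor. Of its 84 desert regions 25 were at least 2-fold higher, and 18 of those had 2-fold more CPM in immune-like nuclei, which gave 46.7% of the locus's DOX counts and 10.8% of its EtOH counts. Within the immune-like nuclei the locus did not differ beyond counting error, with a log2 ratio of 0.034 (-0.034 to 0.10), and outside them it was 0.28 (0.25 to 0.31). The Klf4-Gm26657 locus on chromosome 4, beside the transcription factor gene Klf4, had a similar make-up. Its log2 ratio was 0.18 over all nuclei and 0.086 outside the immune-like clusters, and 43.1% of its DOX counts came from immune-like nuclei. The ratio was 0.32 (0.28 to 0.36) within the unnamed clusters and 0.029 (-0.07 to 0.13) within hormone-sensing luminal-like nuclei.

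Both deserts beside Sox9, which encodes a transcription factor of skeletal and epithelial progenitor cells, were among the 10. The 78 regions between Kcnj2, a potassium channel gene, and Sox9 summed to 139 CPM in DOX and 160 CPM in EtOH, a log2 ratio of -0.21 (-0.24 to -0.18). In the nuclei outside the immune-like clusters these regions summed to 203 and 169 CPM, a log2 ratio of 0.26 (0.23 to 0.30). It was 0.26 (0.22 to 0.30) in the unnamed clusters but -0.014 (-0.14 to 0.11) in hormone-sensing luminal-like nuclei. Immune-like nuclei had few counts in this desert, with 35.5 CPM in DOX and 35.7 CPM in EtOH. The printed region of this locus had 2336 DOX and 1515 EtOH counts, and its log2 ratio outside the immune-like clusters was 1.13 (1.00 to 1.27). This pooled value was above those of both classes in the pool. They were 0.68 (0.54 to 0.82) in the unnamed clusters and -0.63 (-2.20 to 0.60) in hormone-sensing luminal-like nuclei, the latter from 11 DOX counts. The 67 regions on the other side, towards the zinc transporter gene Slc39a11, were the most densely packed, within 348 kb, and had the highest level of the 10 loci, at 376 CPM in DOX and 464 CPM in EtOH. Their log2 ratio was -0.30 over all nuclei and -0.063 (-0.084 to -0.042) outside the immune-like clusters.

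Nudt12-Efna5 on chromosome 17, beside the ephrin gene Efna5, and Slc10a2-Efnb2 on chromosome 8, beside the ephrin gene Efnb2, also went from below to above 0. The log2 ratios over all nuclei were -0.24 for 86 regions and -0.31 for 75 regions. Without the immune-like nuclei the ratios were 0.25 (0.22 to 0.27) for the former and 0.22 (0.19 to 0.25) for the latter. In hormone-sensing luminal-like nuclei they were -0.11 (-0.22 to 0.0043) and 0.13 (0.018 to 0.23), and in the unnamed clusters 0.13 and 0.15. The 67 regions of Inhba-Sugct on chromosome 13, beside the gene of an activin subunit, went from -0.15 to 0.14, with 0.40 in the unnamed clusters and -0.071 (-0.18 to 0.039) in hormone-sensing luminal-like nuclei. The Sel1l-Flrt2 locus on chromosome 12 was lower in DOX by both sums, at -0.57 over all nuclei and -0.13 (-0.17 to -0.089) outside the immune-like clusters, with 19 of its 67 compared regions at least 2-fold lower and 3 higher. Within hormone-sensing luminal-like nuclei the ratio was 0.16 (0.034 to 0.29) and within the unnamed clusters -0.23 (-0.27 to -0.19).

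**Figure D3:**
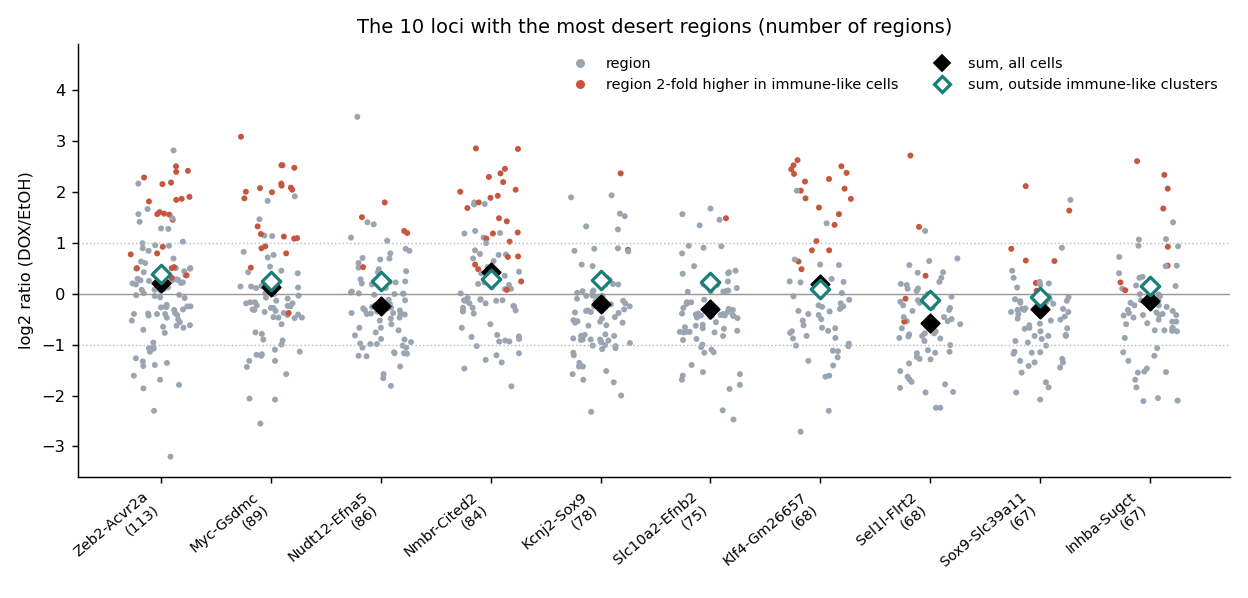
Log2 ratio of DOX to EtOH (y axis) of every compared desert region in the 10 loci with the most desert regions (x axis, number of regions in parentheses). Red points had at least 2-fold more CPM in immune-like nuclei, filled diamonds are sums over all nuclei and open diamonds sums outside the immune-like clusters. Red points lie mostly above 0, and the diamonds lie between -0.57 and 0.42 while single regions run from -3.20 to 3.47.

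Each of the 4 loci whose regions were drawn by position held regions above and below 0. The sign of the log2 ratio changed between 56 of 110 neighbouring pairs of compared regions in the Zeb2-Acvr2a locus, 41 of 88 in the Myc-Gsdmc locus, 40 of 83 in the Nmbr-Cited2 locus and 31 of 77 in the Kcnj2-Sox9 locus. No number expected for signs in random order was computed, so these counts are descriptions. In the Nmbr-Cited2 locus, 68 of the 84 regions lay nearer to Cited2 and 16 nearer to Nmbr. The region of the Zeb2-Acvr2a locus with the highest ratio, 1407.3 kb from the Zeb2 TSS, had 949 DOX and 128 EtOH counts and a log2 ratio of 3.42 outside the immune-like clusters.

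**Figure D4:**
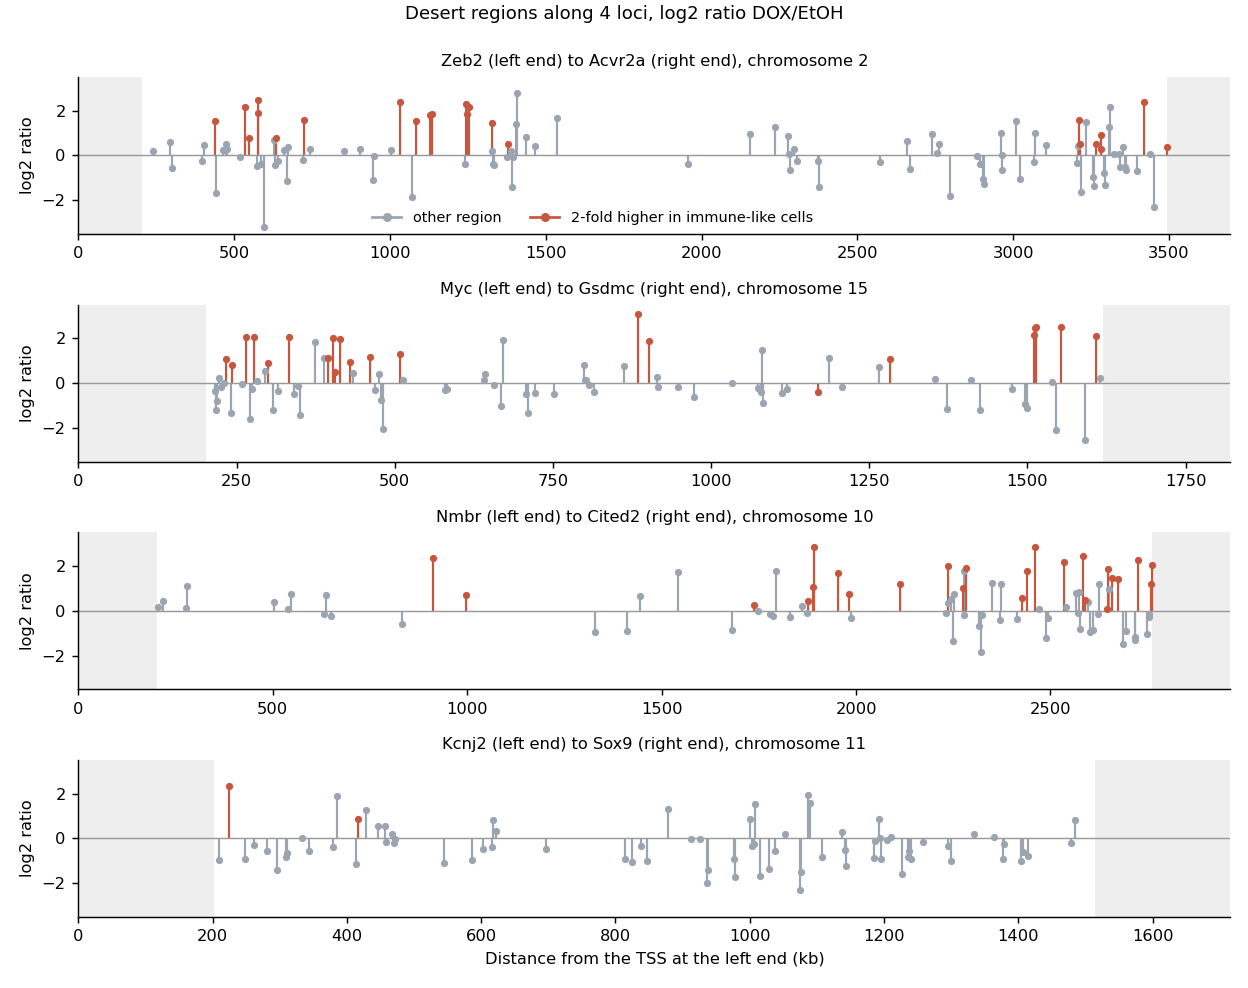
Log2 ratio of DOX to EtOH (y axis) of the desert regions along 4 loci, drawn by distance from the TSS at the left end (x axis, kb). Shaded ends are the 200 kb next to a flanking TSS, which hold no desert region by the rule, and red marks regions with at least 2-fold more CPM in immune-like nuclei. Each locus holds regions above and below 0.

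Of 30 listed genes for transcription factors, ligands and receptors of mammary and immune cells, 19 flanked a desert region, in 28 loci with 1164 desert regions. The list was written with earlier results of these data known. Foxa1, Esr1, Irs1, Irf8, Cebpb, Tfap2a, Tfap2c, Pthlh, Areg and Kit were among those that flanked none. Summed over all nuclei, 9 of the 28 loci were above 0 and 19 below, beside 79 and 304 of the 383 loci with at least 10 desert regions. With the immune-like nuclei left out, 19 of the 28 were above 0 and 9 below. The 66 regions between Celf2 and Gata3, which encodes a zinc-finger factor of luminal cells, summed to 124 CPM in DOX and 196 CPM in EtOH, a log2 ratio of -0.67 (-0.70 to -0.63), and outside the immune-like clusters the ratio was -0.13 (-0.16 to -0.098). The values were -0.046 (-0.15 to 0.055) within hormone-sensing luminal-like nuclei and -0.028 (-0.066 to 0.0095) within the unnamed clusters. Lower sums over all nuclei, with values within 0.13 of 0 outside the immune-like clusters, were also found for Klf5-Klf12 (-0.71 and -0.12), Sox2-Atp11b (-0.61 and -0.041), Nr2f2-Gm10295 (-0.61 and -0.022) and Med13l-Tbx3 (-0.42 and 0.13). Immune-like nuclei gave between 1.40% and 4.47% of the DOX counts of these 4 loci. For Klf5-Klf12 the ratio was 0.19 (0.067 to 0.31) within hormone-sensing luminal-like nuclei and 0.20 (0.15 to 0.26) within the unnamed clusters, above 0 in both although the pooled sum was below. Within the unnamed clusters Sox2-Atp11b was at -0.18 (-0.23 to -0.14), Nr2f2-Gm10295 at -0.0069 (-0.052 to 0.038) and Med13l-Tbx3 at 0.34 (0.29 to 0.38). In the same order, hormone-sensing luminal-like nuclei gave -0.11 (-0.28 to 0.058), -0.22 (-0.36 to -0.078) and -0.03 (-0.14 to 0.083).

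The deserts on both sides of Trps1, the gene the hairpin targets, differed from each other over all nuclei. Towards Eif3h, 41 regions summed to 110 CPM in DOX and 151 CPM in EtOH, a log2 ratio of -0.45 (-0.49 to -0.42). Towards Csmd3, 42 regions summed to 77.3 and 75.9 CPM, a log2 ratio of 0.026 (-0.019 to 0.072). Immune-like nuclei gave 6.21% of the DOX counts on the Eif3h side and 44.2% on the Csmd3 side. Outside the immune-like clusters the pooled values were 0.065 (0.029 to 0.10) and -0.10 (-0.16 to -0.047). This reversed order was not found within the classes that make up the pool. The Eif3h side was at 0.033 (-0.10 to 0.16) and the Csmd3 side at 0.15 (-0.0019 to 0.29) in hormone-sensing luminal-like nuclei, and they were at -0.069 (-0.11 to -0.029) and 0.18 (0.12 to 0.25) in the unnamed clusters.

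Immune-like nuclei gave the largest part of the DOX counts in the Wwox-Maf locus, beside a transcription factor gene that macrophages use. Its 49 regions summed to 196 CPM in DOX and 117 CPM in EtOH, a log2 ratio of 0.75 (0.71 to 0.78), with 66.5% of the DOX counts and 19.8% of the EtOH counts from immune-like nuclei. The ratio was 0.0028 (-0.061 to 0.067) within the immune-like nuclei and 0.088 outside them. The Runx1-Setd4 locus, with 54 regions beside a factor gene used in blood and epithelial cells, went from 0.24 over all nuclei to 0.013 (-0.023 to 0.049) outside the immune-like clusters.

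Higher pooled sums outside the immune-like clusters were found for loci beside Nr2f1 and Id4. The 26 regions between Nr2f1, a nuclear receptor gene, and Arrdc3 had a log2 ratio of 0.24 over all nuclei and 0.76 (0.70 to 0.82) outside the immune-like clusters. The 44 regions between Rnf144b and Id4, whose product is an inhibitor of DNA binding found in basal mammary cells, had 0.033 and 0.60 (0.57 to 0.63). Within the unnamed clusters they were at 0.57 (0.50 to 0.63) and 0.39 (0.36 to 0.42), and within hormone-sensing luminal-like nuclei at -0.29 (-0.61 to 0.018) and -0.17 (-0.32 to -0.022). In both loci immune-like nuclei gave a small part of the DOX counts, 6.35% and 2.61%.

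Among all 383 loci with at least 10 desert regions, the highest sum over all nuclei was that of Adam6a-Zfp386 on chromosome 12, with 18 regions at 42.6 CPM in DOX and 15 CPM in EtOH, a log2 ratio of 1.5 (1.42 to 1.59). This interval spans variable gene segments of the immunoglobulin heavy chain, which the annotation does not class as protein-coding. Immune-like nuclei gave 86.1% of its DOX and 46.4% of its EtOH counts, and the log2 ratio was -0.097 (-0.21 to 0.022) within them and 0.16 outside them. Myo16-Irs2, beside the gene of an insulin receptor substrate, followed with 1.03 over all nuclei and 0.31 outside the immune-like clusters, and 69.7% of its DOX counts came from immune-like nuclei. Among the lowest sums were those of Abra-Angpt1 at -1.25, Dmrt2-Smarca2 and Irx2-Irx4 at -1.17, and Shh-Rnf32 at -1.14. Pooled outside the immune-like clusters these 4 were at -0.68 (-0.76 to -0.60), -0.62, -0.61 and -0.60. Of the 4, Irx2-Irx4 was below 0 both in hormone-sensing luminal-like nuclei, at -0.44 (-0.68 to -0.21), and in the unnamed clusters, at -0.41 (-0.50 to -0.32). In the same order of classes, Abra-Angpt1 was at -0.042 (-0.31 to 0.21) and -0.90 (-0.98 to -0.81), Dmrt2-Smarca2 at 0.27 (0.086 to 0.44) and -0.048 (-0.16 to 0.063), and Shh-Rnf32 at -0.0092 (-0.23 to 0.20) and 0.042 (-0.082 to 0.17). Angpt1 and Shh encode secreted ligands, and Irx2, Irx4 and Dmrt2 encode transcription factors of developing tissues.

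The highest ratio among the 11246 desert regions with at least 200 counts was that of chr15:68481818-68482775 in the Zfat-Khdrbs3 locus, 223 kb from the nearest TSS and in no protein-coding or lncRNA gene body. It had 1122 counts in DOX, in 13.9% of nuclei, and 86 counts in EtOH, in 1.45% of nuclei, with a log2 ratio of 3.62 (3.18 to 4.11). It was nearly silent in immune-like nuclei, with 15 and 2 counts. In DOX it reached 10.8 CPM (9.84 to 11.8) in cluster 2, while the EtOH nuclei of cluster 1 had 0.482 CPM (0.311 to 0.715). The 64 DOX nuclei of cluster 1 had 2.62 CPM (0.715 to 6.71) from 8 counts, an interval that meets that of EtOH. In cluster 8, which both libraries shared, it had 2.85 CPM (1.34 to 5.32) in DOX and 1.81 CPM (0.828 to 3.44) in EtOH, which do not differ beyond counting error.

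A region of the Nudt12-Efna5 locus, chr17:60874818-60875732, had nearly the same profile, with 1134 DOX and 97 EtOH counts and a log2 ratio of 3.47 (3.04 to 3.92). It lay 1860 kb from the nearest TSS, and the whole of its central 300 bases was soft-masked as repeat in the reference, so that reads of other copies could add to it. Cluster 2 had 10.7 CPM of it and the EtOH nuclei of cluster 1 had 0.413 CPM. In cluster 8 it was 8.25 CPM (5.46 to 12.0) in DOX and 3.52 CPM (2.07 to 5.60) in EtOH. The Sall3-Galr1 region, 300 kb from the nearest TSS, had 1582 DOX and 141 EtOH counts. It was at 12.5 CPM in cluster 2 and 0.502 CPM in the EtOH nuclei of cluster 1, and within cluster 8 at 12.6 CPM (9.08 to 17.0) in DOX and 1.61 CPM (0.695 to 3.17) in EtOH. Both were thus higher in DOX within a cluster that held both libraries, with intervals that barely meet for Nudt12-Efna5 and are apart for Sall3-Galr1.

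The other pair of highest regions was open mainly in immune-like nuclei. In an intron of Cntnap2, 214 kb from a TSS on chromosome 6, a region had 1778 DOX and 162 EtOH counts, and 82.8% of the DOX counts came from immune-like nuclei. Within immune-like nuclei it was at 18.2 CPM in DOX and 5.01 CPM in EtOH, a log2 ratio of 1.86 (1.37 to 2.40). The difference was seen in each of 3 immune-like clusters, with 17.3 against 2.97 CPM in cluster 3, 22.6 against 6.89 CPM in cluster 5 and 13.6 against 4.72 CPM in cluster 7. It was not confined to them, since the log2 ratio outside the immune-like clusters was 2.22 (1.74 to 2.72). Within hormone-sensing luminal-like nuclei it was 2.27 (0.56 to 3.81) and within the unnamed clusters 1.96 (1.42 to 2.53). The Bmper-Npsr1 region on chromosome 9 had 315 DOX and 25 EtOH counts, with 92.4% of the DOX counts from immune-like nuclei and a log2 ratio within them of 2.29 (1.03 to 3.93). Its level was highest in immune-like cluster 11, at 11.3 CPM (8.56 to 14.5) in 163 DOX nuclei, which had too few EtOH nuclei to compare. In clusters 3, 5 and 7 it was at 3.74, 1.33 and 0.884 CPM in DOX and 1.85, 0.574 and 0.314 CPM in EtOH, with intervals that overlap in each.

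The 5 lowest regions drew most of their EtOH counts from hormone-sensing luminal-like nuclei. The lowest, chr13:82848746-82849611 in the Cetn3-Mef2c locus, 655 kb from the nearest TSS, had 48 counts in DOX, in 1.01% of nuclei, and 571 in EtOH, in 7.96% of nuclei, a log2 ratio of -3.65 (-4.32 to -3.05). Hormone-sensing luminal-like nuclei gave 382 of the 571 EtOH counts. Within these nuclei the region was at 1.31 CPM in DOX and 5.42 CPM in EtOH, a log2 ratio of -2.04 (-3.68 to -0.80). For the other members of this set, the ratio within hormone-sensing luminal-like nuclei was much closer to 0. The Etaa1-Meis1 region had 106 DOX and 1156 EtOH counts, 1109 of the latter in hormone-sensing luminal-like nuclei, and went from -3.53 over all nuclei to -0.75 (-1.29 to -0.26) within them. The Zeb2-Acvr2a region chr2:45713550-45714547 went from -3.20 to -1.04 (-1.76 to -0.39). The Kcne4-Scg2 region went from -3.19 to -0.42 (-0.91 to 0.037), and the Hs3st1-Rab28 region from -3.11 to -0.41 (-0.97 to 0.10), intervals that include 0. The DOX library held 100 hormone-sensing luminal-like nuclei and the EtOH library 996.

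The 3 desert regions with the most counts lay in the Pcmtd1-Sntg1, Rps24-Zmiz1 and Id2-Rnf144a loci. The Pcmtd1-Sntg1 region, chr1:7397605-7398509, had 12732 DOX and 11571 EtOH counts and was open in 79.8% and 75.5% of nuclei, immune-like ones included. Its central window had a GC content of 61.3% with 20 CpGs, far above the desert medians of 44% and 2 CpGs. Its log2 ratio was 0.056 over all nuclei and -0.019 (-0.080 to 0.043) outside the immune-like clusters. The Rps24-Zmiz1 region, in the body of the lncRNA gene 4930428N03Rik and with 21 CpGs, had 8581 DOX and 8150 EtOH counts and a log2 ratio of -0.0075 (-0.070 to 0.055). The region was at -0.24 (-0.44 to -0.032) in immune-like nuclei and 0.22 (0.15 to 0.28) outside them. The Id2-Rnf144a region had 6932 DOX and 9845 EtOH counts, a log2 ratio of -0.59 (-0.65 to -0.52). Immune-like nuclei gave 1.24% of its DOX counts, and outside them the ratio was 0.00021 (-0.063 to 0.063). Within them it was -1.05 (-1.93 to -0.10), from 86 DOX and 30 EtOH counts.

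Motifs were searched as letters on both strands of the central 300 bases: AGATAA for GATA factors, AGGAAGT for ETS, TGANTCA for AP-1, TGTTTAC for FOX, ACAATG for SOX, GGAATGT for TEAD, TGTGGTT for RUNX, TTGGCA for NFI, TTGCNNAA for C/EBP, TTCNNNGAA for STAT and AGGGGGC for CTCF. Desert regions held an AP-1 motif in 27.0% against 20.9% of all shared regions, a SOX motif in 25.4% against 18%, a GATA motif in 17.7% against 13.2% and an NFI motif in 31.7% against 24.2%. The CTCF motif, that of an architectural protein found at domain borders and many promoters, was rarer, at 2.80% against 6.23%, and the ETS motif was at 13.6% against 14.1%. The desert regions had a lower GC content, whose part in these shares was not tested.

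Motif shares were also taken for desert regions called higher and lower outside the immune-like clusters. A GATA motif, the kind TRPS1 itself recognises, was in 30.3% of the 1307 higher desert regions and 14.0% of the 1170 lower ones. Among the other shared regions the shares were 30.5% and 12.1%, close to those in the deserts. A RUNX motif was in 22.3% of the higher and 11% of the lower members. In the other direction, an AP-1 motif was in 23.6% of the higher and 36.4% of the lower members, and a FOX motif, bound by factors such as the luminal FOXA1, in 4.28% and 15.7%. In the other shared regions the higher and lower shares were 18.8% and 10.1% for RUNX, 20.6% and 30.5% for AP-1 and 3.75% and 12.8% for FOX, so that these contrasts were not particular to the deserts. Over all members, those with a GATA motif had a median log2 ratio outside the immune-like clusters of 0.15 against -0.033 for those without, and those with a FOX motif -0.30 against 0.015. An ETS motif was in 26.3% of the members higher over all nuclei but in 10.6% of those higher outside the immune-like clusters, beside 11.8% and 14.3% of the lower ones.

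**Figure D5:**
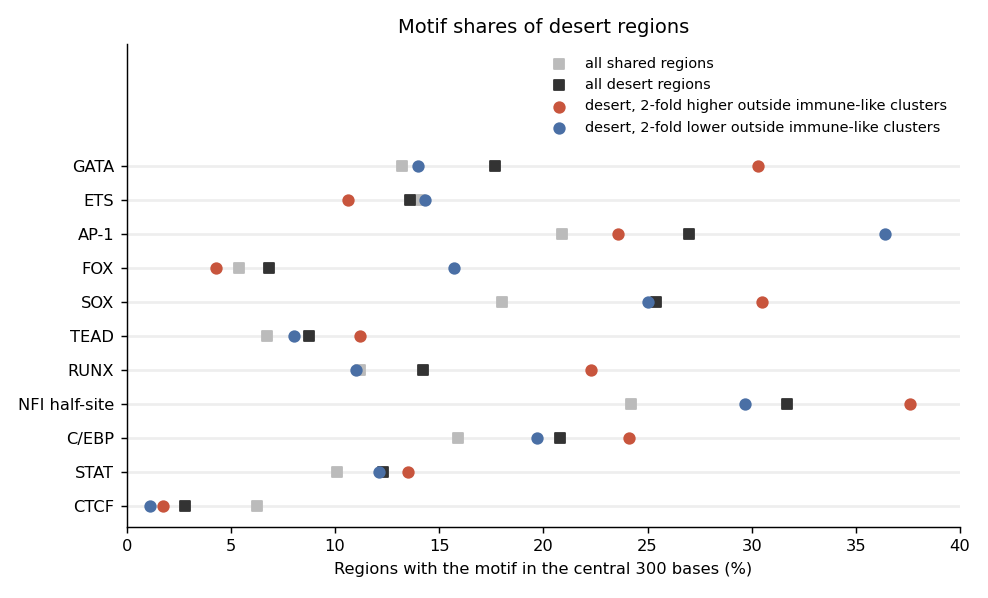
Percentage of regions (x axis) whose central 300 bases hold each of 11 motifs (y axis), for all shared regions, all desert regions, and desert regions at least 2-fold higher or lower in DOX outside the immune-like clusters. GATA stands at 30.3% in the higher and 14.0% in the lower desert regions, FOX at 4.28% and 15.7%.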

How the data were processed

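Single-cell ATAC-Seq was done on nuclei of 1 DOX and 1 EtOH library, made from 10x Genomics kits. For each library the authors deposited counts, which are whole numbers of fragment ends per peak and nucleus without normalization, with lists of peaks and barcodes whose coordinates and names are other than measurements. Per the file headers the counts were made by cellranger-atac 2.0.0, with peaks called in each library alone. The labels give the build mm10. Odd numbers made up 13.76% of the nonzero counts in DOX and 14.29% in EtOH, because a peak usually takes both ends of a fragment, so intervals were computed from the counts divided by 2. They cover counting error only.

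Peaks that overlapped by at least 1 bp were merged, and a library holds no count for a region in which it has no peak. Counts of shared regions were summed over nuclei and scaled to CPM. Log2 ratios of DOX over EtOH carry exact conditional binomial 95% intervals, CPM exact Poisson intervals, and shares Clopper-Pearson intervals. No test was run, since each group has 1 library. All deposited nuclei were kept and no doublet caller was run. Nuclei were clustered on shared regions by latent semantic indexing (TF-IDF, components 2 to 30, 15 neighbours, Leiden resolution 0.5). A cluster was named where the median log2 fold of 1 marker list, over gene bodies and 2 kb upstream, led the next by at least 0.5. Genes and TSS were taken from GENCODE M21 and sequence from GRCm38, which is the same assembly as mm10.

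The loci named were the 10 with the most desert regions, loci flanked by 30 listed genes, and the 5 highest and 5 lowest sums among loci of at least 10 members, the last chosen after their values were seen. Of these, 1 locus and 1 listed gene are not reported here. The regions named were the 5 highest and 5 lowest ratios among members with at least 200 counts, and the 3 with the most counts. Sequences came from the region with the most counts in each of the 5 top loci and from the highest and lowest regions. The members, lists and motifs were chosen with earlier results of these data known. The calls were tested on simulated data for the comparison of DOX with EtOH over all nuclei. The simulated counts held counting error only, with no spread between nuclei, mice or cell types. The 4-fold changes were placed in desert regions with at least 200 counts. There, all of the 200 changed among 170665 regions, 4-fold higher or lower, were called (100%), and 0.00646% of the unchanged ones were. These values check the calling code and give no rate of false calls in the real data. Python 3.11.15, numpy 2.4.6, scipy 1.17.1, pandas 2.3.3, scikit-learn 1.9.0, leidenalg 0.10.2, igraph 0.11.9 and matplotlib 3.10.9 were used.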

Additional observations from a re-analysis of the deposited data

Results flagged for a closer look

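In 4 named loci the ratio went one way in immune-like nuclei and the other way in the pool of nuclei outside them, with both counting intervals away from 0. With 1 library per group, this difference was not tested. In the Nudt12-Efna5 locus the log2 ratio was -0.46 (95% interval -0.61 to -0.31) in immune-like nuclei and 0.25 (0.22 to 0.27) outside them, a difference of 0.71. In the Slc10a2-Efnb2 locus it was -0.48 (-0.68 to -0.27) and 0.22 (0.19 to 0.25), a difference of 0.70. In the Maf-Dynlrb2 locus it was -0.33 (-0.61 to -0.045) and 0.14 (0.094 to 0.18), a difference of 0.47. In the Gm11361-Sox4 locus it was -0.11 (-0.22 to -0.0051) and 0.13 (0.10 to 0.17), a difference of 0.24. The immune-like nuclei gave 9.15%, 6.05%, 8.02% and 25.8% of the DOX counts of these loci. In the same order, the unnamed clusters were at 0.13, 0.15, 0.29 (0.23 to 0.34) and 0.094 (0.057 to 0.13). Hormone-sensing luminal-like nuclei were at -0.11 (-0.22 to 0.0043), 0.13 (0.018 to 0.23), -0.11 (-0.26 to 0.039) and -0.13 (-0.25 to -0.0098). In Gm11361-Sox4 they thus went the same way as the immune-like nuclei.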

How the results depend on the processing

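No paired analysis was possible because DOX and EtOH are 1 library each. Immune-like clusters held 1241 DOX and 271 EtOH nuclei at a Leiden resolution of 0.5 and of 1, and leaving them out gave identical values at both. The resolution of 1 is therefore no separate check. When the immune-like nuclei were left out, 1170 desert regions were at least 2-fold lower, the median log2 ratio was -0.0047, and the shares of counts were 3.64% in DOX and 3.42% in EtOH. The summed log2 ratio then turned to 0.25 for Nudt12-Efna5, 0.26 for Kcnj2-Sox9, 0.22 for Slc10a2-Efnb2 and 0.14 for Inhba-Sugct, and that of the single regions to -0.019 for Pcmtd1-Sntg1 and 0.00021 for Id2-Rnf144a. With the TSS of every annotated gene, 803 members were left, with 68 higher, 182 lower, a median of -0.39 and shares of 0.160% and 0.198%, and Zeb2-Acvr2a turned to -0.20 and Nmbr-Cited2 to -0.94. Beyond 500 kb there were 215 higher, 478 lower, a median of -0.37 and shares of 0.479% and 0.578%, and Klf4-Gm26657 turned to -0.31. In both cases fewer regions were counted by construction. The median was -0.22 with the median of all shared regions set to 0, -0.38 with a minimum of 400 counts and -0.29 by number of nuclei with a count, where the shares were 3.35% and 3.81%. The shares were 3.29% and 3.83% with only protein-coding transcripts as TSS, 2.52% and 2.94% without protein-coding gene bodies, and 2.82% in DOX with only nuclei of at least 20000 counts. Scaling to all deposited counts, no minimum count and a reciprocal overlap of 50% moved none of the counts of regions, the median or the shares past their limits. Under the reciprocal overlap the Cetn3-Mef2c and Bmper-Npsr1 regions dropped out, so their ratios compare counts over partly different bases. Of 304 values for single loci, regions and motifs over the 13 alternatives, 222 stayed within their counting interval, 67 moved out of it and 15 turned. The alternatives at both Leiden resolutions were counted separately although their values were identical. A turn was counted only where the main interval excluded 0. The Rps24-Zmiz1 region was therefore counted as moved when it went from -0.0075 to 0.22 without the immune-like nuclei. The depth limits the nuclei of a type: the DOX library held 100 hormone-sensing luminal-like nuclei and the EtOH library 271 immune-like ones, so their ratios carry wide intervals.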

Other observations

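Desert regions with a peak in 1 library only were not compared, because a library gives no count where it has no peak. Of 45445 merged regions with a DOX peak only, 3404 (7.49%) lay more than 200 kb from every protein-coding TSS, and of 51906 with an EtOH peak only, 6384 (12.3%) did. Their median counts were 134 in DOX and 127 in EtOH.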
